A study of Nezara viridula with 24 samples.

Results

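The genes described here had transcripts along the whole sampled midgut of Nezara viridula, the southern green stink bug, at like levels from section to section, and few reads in the salivary glands. They were chosen on the corn-fed libraries. Isoforms of an assembled gene were summed, and counts were divided by the library total to give CPM, which sets all libraries to one common total. A gene was kept if its mean over 3 libraries was at least 20 CPM in each of corn M1, M2 and M3, if the highest section mean was at most 3 times the lowest, and if the mean in corn glands was at most 1% of the lowest section mean. Of 201329 assembled genes, 3077 reached the level, 2723 of these also kept within the fold limit, and 113 met all criteria, so no cap on their number was needed. The other 2610 genes at like levels along the corn midgut had more than that in the glands and serve below as a side-by-side reference. Because measured values chose the 113 genes, their level, evenness and low gland reads on corn are descriptions and carry no test.

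Adults were given corn or green bean for 24 h after their moult, and the glands and 3 parts of the midgut, named M1, M2 and M3, were taken from 4 to 10 individuals for a library of polyA RNA. Each tissue had 3 libraries per diet, 24 in all, which are called corn or green bean glands, M1, M2 and M3. The labels give the strain of no library, name no treatment other than the diet and state no age beyond adult. The series' text speaks of triplicates and does not say whether each pool had its own culture. The p-values then describe only how pools differ, which may be technical.

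In pentatomid bugs, saliva is injected into the plant and begins digestion outside the body, and the liquid food then passes through the midgut sections, which secrete enzymes and absorb nutrients. A further midgut section that houses symbiotic bacteria lies behind them and was not among the samples. The hemipteran midgut is known for cysteine proteases and for membranes that cover the microvilli of its cells. The tables pair none of the assembly identifiers with a gene name, so no function is assigned to any gene here, lists of digestive enzymes and transporters were not used, and the tissue labels were not checked against marker genes. No sequences were used either.

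Library totals lay between 17819164 and 33954593 counts, so 3 counts are well under 1 CPM. Some libraries stood apart. The trimmed mean of M-values (TMM), which scales libraries to a common set of genes, gave factors of 0.518 to 0.756 to replicates 2 and 3 of corn M1 and M2, 1.12 and 1.32 to their replicate 1, 0.946 to 1.58 in corn M3 and 0.911 to 1.24 in green bean sections. Values scaled by library totals and by TMM therefore differ for these libraries, and diet results are given with and without corn replicate 1 and with and without corn replicates 2 and 3. Among glands, green bean replicate 2 stood apart from green bean replicates 1 and 3 for the genes described here. RNA came from whole tissue, so fewer cells of a type and less RNA per cell cannot be told apart.

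Together the 113 genes held 11.3% ± 0.917 (SD, n = 3, here and in the next values) of the reads of corn M1, 10.7% ± 1.05 of corn M2, 11.97% ± 1.36 of corn M3 and 0.0381% ± 0.00893 of corn glands. Green bean libraries took no part in the choice, and there the share was 8.92% ± 0.509 of M1, 9.62% ± 0.929 of M2 and 11.3% ± 0.206 of M3. In green bean glands the share was 0.184% in replicate 1, 0.0265% in replicate 2 and 0.16% in replicate 3. All 18 midgut libraries thus lay far above all 6 gland libraries, and the green bean glands spread more widely than the corn glands. A small number of genes made up most of these counts. By mean corn level, 4 genes held 28.9% of the summed level, 10 genes held 58.2% and 20 genes held 78.6%. The mean corn midgut level ran from 26.5 to 8722 CPM with a median of 210.6, and 23 genes stood at 1000 CPM or more, 56 between 100 and 1000, and 34 below 100.

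**Figure D1:**
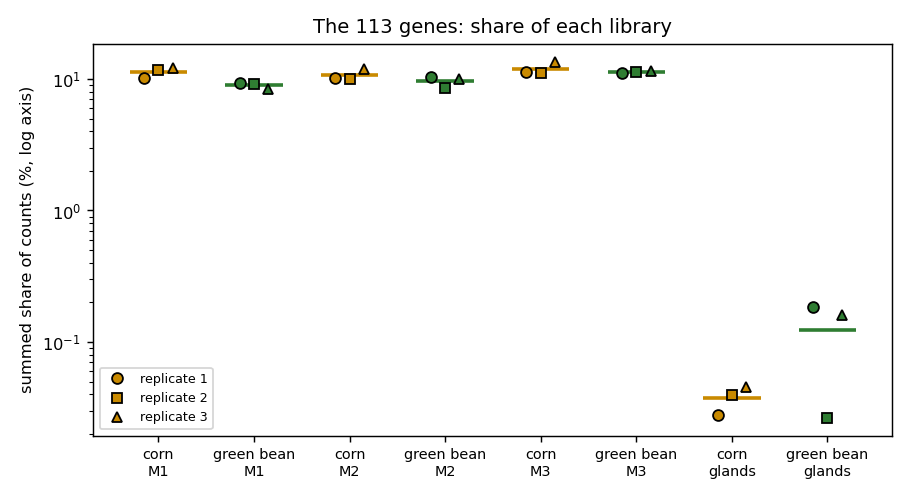
Summed share of the counts held by the 113 genes in each of the 24 libraries, in percent on a log axis, by tissue and diet. Points are libraries with the shape giving the replicate number, and bars are means of 3. The midgut shares lie between 8.34% and 13.5%, and the gland shares between 0.0265% and 0.184%, with green bean replicates 1 and 3 above the corn glands.

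At the edges of the rule, TRINITY_DN2927_c1_g1 was kept with 21.4 CPM in its lowest section and TRINITY_DN3268_c0_g1 fell outside with 19.7 CPM. TRINITY_DN1481_c0_g1 was kept with a highest-to-lowest ratio of 2.94 and TRINITY_DN1858_c0_g1 lay outside with 3.01. TRINITY_DN100_c7_g1 was kept with glands at 0.999% of the lowest section and TRINITY_DN10243_c0_g3 lay outside with 1.02%. A further 33 genes met the level and the gland limit but varied more than the fold limit along the corn midgut. On corn, the median highest-to-lowest ratio of the 113 genes was 1.65, and 38 of them kept within 1.5-fold and 74 within 2-fold. The median gland level was 0.435% of the lowest section, with 71 genes at or under 0.5%.

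The 4 genes with the most reads were TRINITY_DN1174_c0_g1, TRINITY_DN390_c0_g1, TRINITY_DN2138_c8_g1 and TRINITY_DN225_c0_g1. CPM is not corrected for transcript length, which was not used, so this is an order of reads and not of molecules. TRINITY_DN1174_c0_g1 stood at 6069, 6617 and 6208 CPM in corn M1 (replicates 1 to 3, here and below), with 7013, 7037 and 10393 in corn M2 and 10553, 11464 and 12762 in corn M3. On green bean it stood at 6626, 5988 and 5204 CPM in M1, 7705, 5699 and 8082 in M2 and 9826, 9455 and 10895 in M3. Its values overlapped between diets in every section, and M3 was the highest section mean on both diets.

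TRINITY_DN225_c0_g1 stood at 9259, 3789 and 5804 CPM in corn M1, 8877, 3936 and 4553 in corn M2 and 11436, 12786 and 9241 in corn M3. On green bean its values were 9021, 7515 and 7980.1 CPM in M1, 10971, 9032 and 9479 in M2 and 8432, 11187 and 11491 in M3. In corn M1 and M2, replicate 1 was the highest of 3, and all green bean M2 libraries lay above all corn M2 libraries. It passed none of the tests between sections or diets, with edgeR adjusted p of at least 0.403.

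TRINITY_DN390_c0_g1 stood at 5669, 9325 and 10394 CPM in corn M1, 6052, 6489.6 and 12943 in corn M2 and 7378, 6233 and 10709.7 in corn M3. Its green bean libraries had 5948, 4059 and 2802 CPM in M1, 3159.5, 2727 and 3433 in M2 and 7017, 5605 and 6499.9 in M3. Every green bean M2 library lay below every corn M2 library, while the diets overlapped in M1 and M3. Over the mean of the sections it was lower on green bean (log2 fold change -1.31, SE 0.34, adjusted p = 0.0346 by edgeR), a call lost when the sections of a diet and number were summed, as described with the diet results. TRINITY_DN2138_c8_g1 averaged 9529.6 ± 3796, 5722 ± 2162 and 8329 ± 1176 CPM in corn M1, M2 and M3 (SD, n = 3 each). On green bean it averaged 2883 ± 1428, 2600.4 ± 1483 and 10290.5 ± 868 CPM, with every M3 library above every M1 and M2 library, but no section comparison passed (edgeR adjusted p from 0.0656 to 0.843).

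Whether the evenness along the midgut also holds in libraries the rule did not see was examined on green bean. Of the 113 genes, 94 met both midgut criteria there (83.2%), 109 reached 20 CPM in every section and 95 kept within 3-fold. Among the 2610 reference genes with glands above the limit, 2503 met both criteria on green bean (95.9%). The median highest-to-lowest ratio on green bean was 1.83 for the 113 genes and 1.31 for the reference genes; this difference was not tested. The section with the highest mean was M1 for 38, M2 for 28 and M3 for 47 of the 113 genes on corn, and M1 for 32, M2 for 33 and M3 for 48 on green bean. It was the same section on both diets for 77 genes. The largest ratio on green bean, 12.6, was that of TRINITY_DN1391_c2_g1.

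**Figure D2:**
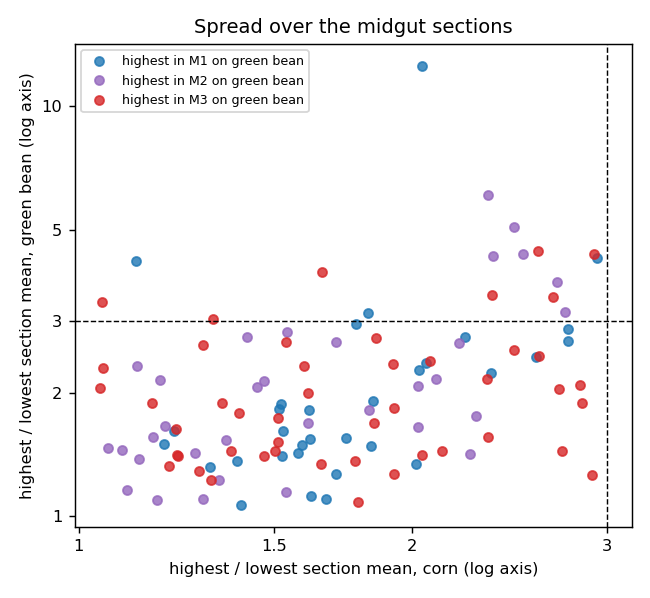
Highest over lowest section mean on green bean against the same ratio on corn, both on log axes, for 112 of the 113 genes (the other one was at 0 in green bean M1 and M2). Dashed lines mark the fold limit of 3, which chose the genes on corn, and colours give the section with the highest green bean mean. Of all 113 genes, 95 keep within the limit on green bean, and the point farthest above it, at 12.6, is highest in M1.

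Sections were compared within the 9 green bean midgut libraries. TRINITY_DN13854_c0_g1 did not pass the filter on low counts, so 112 of the 113 genes were tested. Between M1 and M3, 35 of 112 genes differed, 18 higher and 17 lower in M3 (31.2%), where 18.4% of all 19611 genes tested differed, 8.93% higher and 9.47% lower. Of the reference genes, 22% differed. Between M1 and M2, 12 genes differed, 9 higher and 3 lower in M2 (10.7%), against 3.78% of all genes, 2.07% higher and 1.71% lower. Between M2 and M3, 14 genes differed, 6 higher and 8 lower in M3 (12.5%), against 7.69% of all genes, 3.46% higher and 4.24% lower. The median log2 fold change over the 112 genes was 0.03 from M1 to M2, 0.12 from M2 to M3 and 0.18 from M1 to M3, where that of all genes was -0.11, 0.09 and 0.10. For 49, 48 and 35 genes in these comparisons, the 95% interval of the log2 fold change lay within 1 on either side of 0, so for the others a change of 2-fold could not be set aside. Calls are edgeR quasi-likelihood adjusted p under 0.05 over all genes of the fit, and the comparisons share libraries. The fit took the 9 libraries as independent, although most same-numbered sections deviated together, as given with the diet results. The counts of 12 and 14 fell to 6 and 9 without green bean M2 replicate 1, and that of 14 to 6 and 7 without M2 replicates 2 and 3. A fit to all 18 midgut libraries called 8, 4 and 18 genes for M1 to M2, M2 to M3 and M1 to M3. For these refits the share of all genes called is not given, so the counts show only how the calls moved.

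TRINITY_DN7550_c0_g1 rose stepwise in reads from M1 to M3. On green bean it stood at 1129.5, 1092 and 1005 CPM in M1, 2705, 2511 and 2754 in M2 and 4307, 5277 and 4776 in M3. No library of a section overlapped with those of another. From M1 to M3 it rose (log2 fold change 2.07, SE 0.16, adjusted p = 0.000474 by edgeR), and so it did from M1 to M2 (log2 fold change 1.13, SE 0.16, adjusted p = 0.0119 by edgeR) and from M2 to M3 (log2 fold change 0.94, SE 0.16, adjusted p = 0.0147 by edgeR). TRINITY_DN118309_c0_g1, at 77.4, 113 and 88.5 CPM in green bean M1 and 390.2, 195 and 386 in M3, also rose (log2 fold change 1.78, SE 0.38, adjusted p = 0.0179 by edgeR). Without M1 replicate 1 or 3 it did not pass (edgeR adjusted p = 0.0568 and 0.0518).

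TRINITY_DN1391_c2_g1 was highest in M1. On green bean it stood at 105, 124 and 114 CPM in M1, 3.57, 15.8 and 8.07 in M2 and 17.4, 16.2 and 23.5 in M3. All M1 libraries lay above all others, and it fell from M1 to M2 (log2 fold change -3.85, SE 0.50, adjusted p = 0.01 by edgeR) and from M1 to M3 (log2 fold change -2.66, SE 0.48, adjusted p = 0.0101 by edgeR). On corn its section means, M1 to M3, were 81.6 ± 5.98, 39.8 ± 26.2 and 60.7 ± 14.3 CPM (SD, n = 3 each), within the fold limit. TRINITY_DN1481_c0_g1 fell from 1127, 1818 and 1132 CPM in green bean M1 to 333, 390.4 and 233 in M3 (log2 fold change -2.15, SE 0.33, adjusted p = 0.00551 by edgeR). Its M2 values of 591, 676 and 949 CPM lay between those of M1 and M3 without overlap.

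Some genes peaked or dipped in M2 on green bean. TRINITY_DN2812_c0_g1 stood at 195, 117 and 168 CPM in M1, 1154, 787 and 978 in M2 and 693, 579.9 and 387 in M3. It rose from M1 to M2 (log2 fold change 2.43, SE 0.37, adjusted p = 0.0164 by edgeR), and its M2 libraries all lay above those of M1 and M3. The call was lost without M1 replicate 2 or 3 or M2 replicate 1 (edgeR adjusted p from 0.0567 to 0.0702). TRINITY_DN1684_c1_g2 rose from 535, 367 and 941 CPM in M1 to 3248, 2665 and 3438 in M2 (log2 fold change 2.19, SE 0.35, adjusted p = 0.0192 by edgeR), and was at 949, 1419 and 1879 in M3. It did not pass without M1 replicate 1 (edgeR adjusted p = 0.0625) or M2 replicate 1 (0.0723), nor with no filter on low counts (0.257). TRINITY_DN9422_c0_g1 showed the opposite order, with 191, 194 and 134 CPM in M1, 73.2, 74 and 88.1 in M2 and 207, 247 and 172 in M3. It fell from M1 to M2 (log2 fold change -1.32, SE 0.24, adjusted p = 0.028 by edgeR) and rose from M2 to M3 (log2 fold change 1.52, SE 0.24, adjusted p = 0.0121 by edgeR). The fall was lost without M1 replicate 1 or 2 or any one M2 library (edgeR adjusted p from 0.0731 to 0.126), and the rise without M2 replicate 2 or 3 (0.0673 and 0.0531). In the fit to 18 libraries neither passed (0.171 and 0.0772).

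From M2 to M3 on green bean, TRINITY_DN776_c0_g1 fell from 325, 328 and 254 to 66.3, 74.2 and 67.8 CPM (log2 fold change -2.02, SE 0.21, adjusted p = 0.00276 by edgeR). Its M1 values, 189, 298 and 205 CPM, overlapped with those of M2 and not with those of M3. TRINITY_DN969_c0_g2 fell from 84.7, 73.3 and 57.1 to 23.4, 24.4 and 30.8 CPM (log2 fold change -1.35, SE 0.23, adjusted p = 0.0154 by edgeR), and not without M2 replicate 2 or M3 replicate 2 (edgeR adjusted p = 0.0562 and 0.0564). TRINITY_DN5039_c0_g4 rose from 29.3, 45.6 and 36.8 to 198, 192 and 96.3 CPM (log2 fold change 2.27, SE 0.48, adjusted p = 0.0336 by edgeR). This call was lost without any one M2 library or M3 replicate 1 or 2 (edgeR adjusted p from 0.0867 to 0.14) and in the fit to 18 libraries (0.06).

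Diet was compared within sections and over their mean, 9 green bean against 9 corn libraries. These tests use the corn libraries that chose the genes: the floor on corn midgut levels and the limit on the corn gland share both favour high corn midgut values, and so lower values on green bean. The reference genes carry the same floor but were taken for exceeding the gland limit, so they are no like-for-like control, and the counts below are given as a description of these genes. Over the mean of the sections, 28 of 113 genes differed, 2 higher (TRINITY_DN2556_c1_g1 and TRINITY_DN776_c0_g1) and 26 lower on green bean (24.8%), against 6.93% of all 23008 genes tested, 3.15% higher and 3.78% lower. Of the 2610 reference genes, 8.2% were higher and 5.4% lower. The median log2 fold change of the 113 genes was -0.48 and that of all genes 0.10. This fit counts 9 libraries per diet as independent. However, same-numbered sections of a diet tended to deviate together, with correlations of 0.117 to 0.711 on corn and -0.00732 to 0.912 on green bean. A library correlated best with its own number in 11 of 18 cases on corn and 13 of 18 on green bean. With the sections summed per diet and replicate number, 3 units against 3, none of the 113 genes was called by edgeR, nor any other gene (0%). In that fit the median log2 fold change of the 113 genes was -0.45, with all genes at 0.03. All calls over the mean of the sections given here were thus lost in that fit. In single sections, 1 gene differed in M1, lower on green bean (0.885% against 0.0217% of all genes, 0.013% lower). In M2, 3 differed, 1 higher and 2 lower (2.65% against 0.5%, 0.161% higher and 0.339% lower). In M3 none differed, nor did any other gene tested (0%). An unadjusted edgeR p under 0.05 was reached in M3 by 7 of the 113 genes and by 1815 of all 23008. DESeq2 called 3 of the 113 there, a count without the share of all genes beside it. The medians in M1, M2 and M3 were -0.68, -0.65 and -0.13, with all genes at 0.16, 0.18 and 0.00. Of the 28 genes, 3 had no overlap between the 9 libraries of each diet: TRINITY_DN1825_c0_g1, TRINITY_DN13854_c0_g1 and TRINITY_DN2976_c0_g1. The floor on corn levels favours such a gap, and its share over all genes was not counted. The count of 1 in M1 was 2 without corn M1 replicate 1 and 0 without any other one of the 6 libraries. The count of 3 in M2 was 24 without corn M2 replicate 1, 1 without corn M2 replicate 2 or 3, and 0 without any one green bean M2 library. These refits are given without the share of all genes and show only how the calls moved. Whether diet differences vary between sections was not tested.

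These counts moved with the corn libraries that stood apart. Without corn replicate 1 in every tissue, 77 of the 113 genes differed over the mean of the sections, 2 higher and 75 lower, but so did 35.4% of all genes, 19.4% higher and 16% lower. In M1 and M2 the counts were then 47 and 53, against 6.72% and 22.4% of all genes. Without corn replicates 2 and 3, 5 of the 113 genes differed, 2 higher and 3 lower, against 2.4% of all genes, 0.713% higher and 1.69% lower. In M1 and M2 none was then called, against 0% and 0.013% of all genes. The median log2 fold change over the mean of the sections was then 0.08 where that of all genes was 0.09. Scaled by column totals instead of TMM, with all libraries kept, the median over the mean of the sections was -0.16 where all genes were at 0.28. Relative to the median of all genes, the 113 genes thus lay at -0.58 on the log2 scale with TMM, -0.44 with column totals, -1.08 without corn replicate 1 and -0.01 without corn replicates 2 and 3. With 1 library left out, the count of 28 ranged from 12, without green bean M3 replicate 2, to 46, without corn M1 replicate 1. It was also 43 without corn M2 replicate 1, 15 and 18 without corn M1 replicates 2 and 3, 16 without corn M2 replicate 3 and 13 without corn M3 replicate 3. On green bean it was 16, 15 and 17 without M2 replicates 1, 2 and 3, and 16 without M3 replicate 3. Counts with 1 library left out have no share of all genes beside them and show only how the calls moved.

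**Figure D3:**
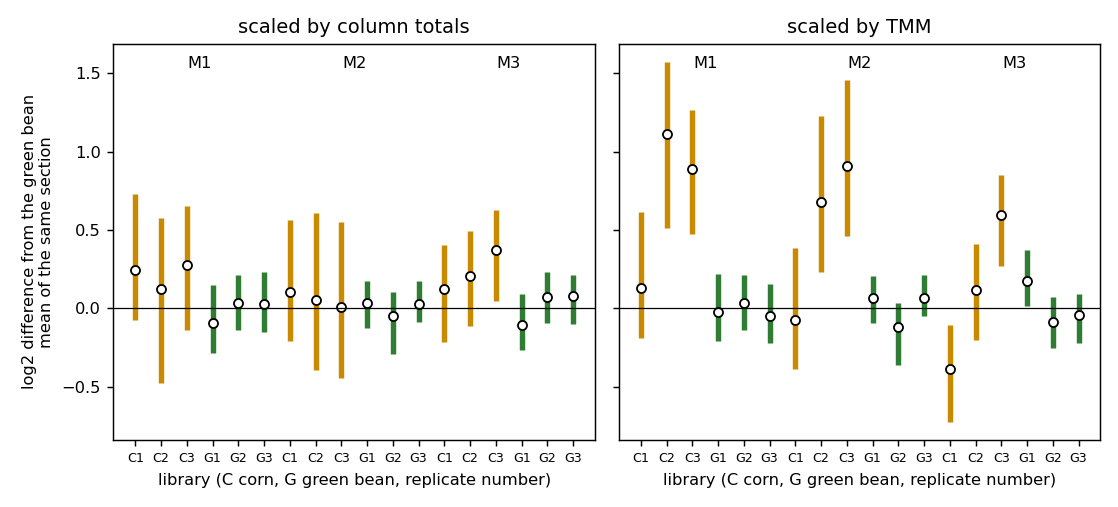
Difference of each midgut library from the green bean mean of its section on the log2 scale (0.1 CPM added), for levels scaled by column totals (left) and by TMM (right). Points are medians over the 113 genes and bars run from the lower to the upper quartile. With TMM, replicates 2 and 3 of corn M1 and M2 have medians of 0.68 to 1.11 and replicate 1 has 0.13 and -0.08; with column totals all 6 lie between 0.01 and 0.28.

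TRINITY_DN1825_c0_g1 was lower on green bean in every section. It stood at 3465, 3548 and 2928 CPM in corn M1, 4646, 3429 and 3421 in corn M2 and 4831, 3168 and 5822 in corn M3. The green bean values were 597, 659 and 798 CPM in M1, 496, 1058 and 944 in M2 and 1120.4, 1199 and 1346 in M3. All 9 green bean libraries lay below all 9 corn libraries. In corn M2, replicate 1 was the highest of 3. It fell over the mean of the sections (log2 fold change -2.45, SE 0.23, adjusted p = 0.000234 by edgeR), in M1 (log2 fold change -2.84, SE 0.40, adjusted p = 0.0454 by edgeR) and in M2 (log2 fold change -2.67, SE 0.40, adjusted p = 0.0114 by edgeR). In M3 it did not pass (log2 fold change -1.84, SE 0.39, adjusted p = 0.258 by edgeR). Over the mean of the sections it passed in 25 of 26 alternative fits (edgeR or DESeq2 adjusted p from 1.04e-75 to 0.0314), and not with the sections summed (0.348), where the log2 fold change was -2.41. The calls in single sections were lost when 1 of several libraries was left out, in M1 without any one green bean M1 library or without corn replicate 2 or 3 (edgeR adjusted p from 0.0861 to 0.18) and in M2 without any one green bean M2 library (0.05003 to 0.0697). Without corn replicates 2 and 3 neither passed (edgeR adjusted p = 0.28 in M1 and 0.127 in M2), and in the fit to the 6 M1 libraries alone that in M1 did not (0.0844).

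TRINITY_DN13854_c0_g1 was nearly without reads on green bean. On corn it stood at 40.5, 98.6 and 84.5 CPM in M1, 30.8, 35.9 and 66.2 in M2 and 12.3, 34.2 and 35.3 in M3, so that every corn midgut library had it, with replicate 1 the lowest in each section. Of the 9 green bean midgut libraries, 8 had no count and M3 replicate 1 had 86 counts, 2.77 CPM. It was at least 1653-fold lower in green bean M1 and at least 1143-fold lower in green bean M2, each set against 3 counts over the green bean group, and 28.3-fold lower in M3. Over the mean of the sections it passed (edgeR adjusted p = 0.00413), and without corn replicates 2 and 3 (0.143) or with the sections summed (0.348) it did not, although the corn libraries left in the first of these had 12.3 to 40.5 CPM. This gene was chosen by the floor on corn levels and passed the filter on low counts only through its corn libraries. Both favour such a fall, so the pass describes a chosen gene and is no test of diet. The gland libraries had 0.0483, 0.417 and 0.205 CPM on corn and no count on green bean.

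TRINITY_DN2976_c0_g1 and TRINITY_DN2556_c1_g1 differed in M2. TRINITY_DN2976_c0_g1 stood at 380.4, 394 and 394 CPM in corn M2 and 115, 195 and 121 in green bean M2 (log2 fold change -1.97, SE 0.41, adjusted p = 0.0496 by edgeR). Its diets did not overlap in M1 or M3 either, with 292, 377 and 361 CPM against 87.1, 158 and 158 in M1 and 284, 321 and 388 against 114, 139 and 141 in M3, where it did not pass in the single section. Over the mean of the sections it fell on green bean (log2 fold change -1.74, SE 0.23, adjusted p = 0.00216 by edgeR). TRINITY_DN2556_c1_g1, the only gene of the 113 called higher in a single section, stood at 394, 449 and 468 CPM in green bean M2 and 272, 129.8 and 79.7 in corn M2 (log2 fold change 1.15, SE 0.23, adjusted p = 0.0473 by edgeR). Corn replicate 1 was the highest of the corn libraries in M1 and M2. Over the mean of the sections it rose on green bean (log2 fold change 0.71, SE 0.13, adjusted p = 0.00939 by edgeR), though libraries of the diets overlapped. In M2 it did not pass with column totals in place of TMM (edgeR adjusted p = 0.183). Both calls in M2 were lost without corn M2 replicate 2 or 3, without any one green bean M2 library, or without corn replicates 2 and 3 (edgeR adjusted p from 0.0999 to 0.26). They were also lost in the fit to the 6 M2 libraries alone (edgeR adjusted p = 0.0559 for TRINITY_DN2976_c0_g1 and 0.141 for TRINITY_DN2556_c1_g1).

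**Figure D4:**
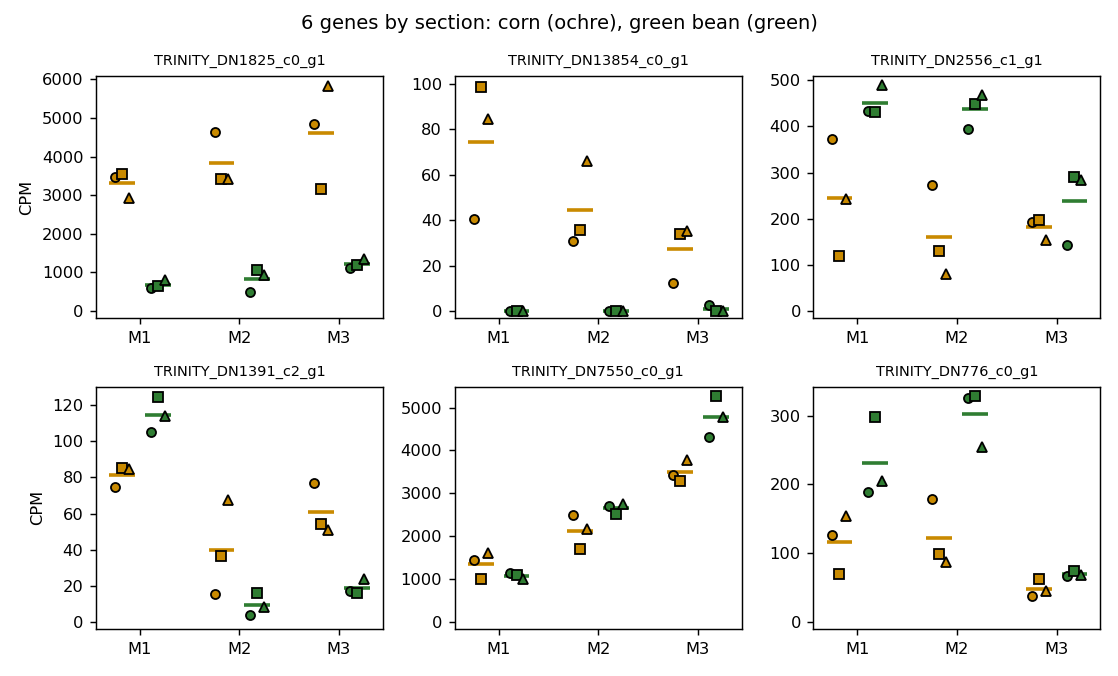
Levels of 6 of the 113 genes in the 18 midgut libraries, in CPM over library totals, by section and diet. Points are libraries with the shape giving the replicate number (circle 1, square 2, triangle 3), and bars are means of 3. TRINITY_DN1825_c0_g1 and TRINITY_DN13854_c0_g1 are lower on green bean in every section, TRINITY_DN7550_c0_g1 is highest in M3, TRINITY_DN1391_c2_g1 is highest in M1, and TRINITY_DN776_c0_g1 is lowest in M3.

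In the glands, the reads of the 113 genes followed their midgut levels. In every corn gland library the level rose with the midgut mean over the genes (Pearson r of log10 CPM with 0.1 added was 0.945, 0.972 and 0.967 in replicates 1 to 3, over 113 genes that share the library and its depth). The level was a median of 0.2%, 0.332% and 0.352% of the corn midgut mean in these libraries, with quartiles of 0.153% and 0.271%, 0.278% and 0.403%, and 0.285% and 0.483%. The gland limit of the rule caps this share, so both r and the narrow spread on corn are partly set by the choice of genes. They are descriptions and carry no test. On green bean, which the rule did not use, r was 0.874, 0.907 and 0.857, and the median share of the green bean midgut mean was 1.33% in replicate 1, 0.237% in replicate 2 and 1.4% in replicate 3. Green bean replicate 2 thus lay within the range of the corn glands, and the other green bean glands above it.

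Of the 113 genes, 22 met the gland limit of 1% of the lowest section on green bean, and 19 met all criteria there. The number was 42 without green bean replicate 1, 12 without replicate 2 and 41 without replicate 3. Gland and midgut levels come from separate tables, so this was not tested. In single libraries, the level was at or below 1% of the midgut mean for 40, 109 and 32 genes in green bean glands 1 to 3, and for 113, 113 and 111 in the corn glands. Green bean replicates 1 and 3 both exceeded every corn gland library for 90 genes, and all 3 green bean libraries did so for 11. The rule's limit on corn gland levels favours such a gap, and its share over all genes was not counted. In the test of diet in the glands, 76 of the 113 genes passed the filter on low counts. None was called by edgeR, against 0.118% of 12741 genes. An unadjusted edgeR p under 0.05 was reached by 27 of the 76 and by 1301 of the 12741. DESeq2 called 5, all higher on green bean, and the share of all genes it called is not set beside this count. Corn gland levels had been chosen low, which favours higher values on green bean, so the 5 are not read as a result about these genes. The 2610 reference genes, all above the gland limit on corn, held 40.1% ± 0.93 of counts in corn glands and 40.5% ± 4.16 in green bean glands (SD, n = 3 each).

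**Figure D5:**
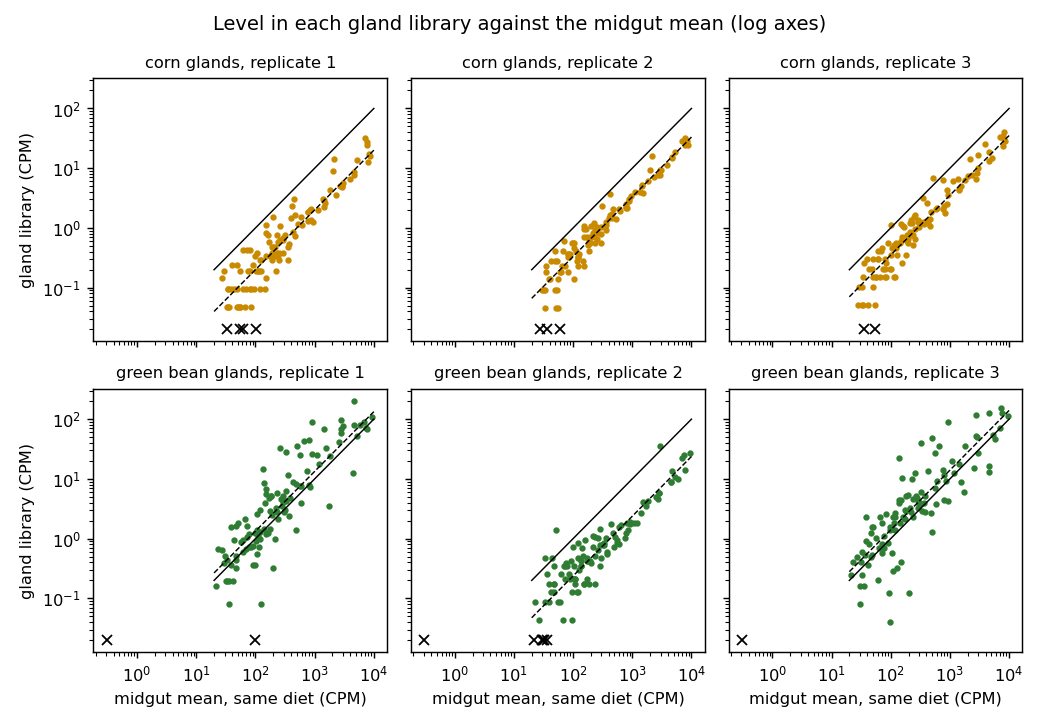
Level of each of the 113 genes in the 6 gland libraries against its midgut mean on the same diet, in CPM on log axes. The solid line is 1% of the midgut mean, the dashed line is the median share in that library, and crosses are genes without a count, drawn at the bottom. The points of green bean replicates 1 and 3 lie around 1.33% and 1.4%, and those of the other 4 libraries around 0.2% to 0.352%.

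Single genes departed from the common share. TRINITY_DN54_c0_g1, the farthest above the gland limit on green bean at 10.3% of its lowest section, stood at 32.7, 0.644 and 12.6 CPM in green bean glands and 0.386, 0.788 and 1.28 in corn glands. Its midgut means were 149 ± 87.8, 177 ± 31.6 and 451 ± 141 CPM in green bean M1, M2 and M3 (SD, n = 3 each). TRINITY_DN1825_c0_g1, lower in the green bean midgut, stood at 90.7, 1.93 and 90.2 CPM in green bean glands and 6.56, 11.5 and 25.8 in corn glands. TRINITY_DN390_c0_g1 stood at 201, 8.84 and 126 CPM in green bean glands and 17.1, 28 and 40.7 in corn glands. In all of these, green bean replicates 1 and 3 lay above all corn glands, and replicate 2 lay within the range of the corn glands or below it. TRINITY_DN1684_c1_g2 was different, at 3.46, 3.48 and 6.01 CPM in green bean glands and 4.97, 7.6 and 6.6 in corn glands, with no high library.

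Among the 113 genes there were 111 Trinity components, the groups of assembled sequence that share a part, and 2 of them held 2 genes each. Of the first, TRINITY_DN17514_c0_g1 averaged 1269.5 ± 186, 1147 ± 90.2 and 822 ± 141 CPM in green bean M1, M2 and M3 (SD, n = 3 each) and fell from M1 to M3 (log2 fold change -0.71, SE 0.16, adjusted p = 0.0227 by edgeR). TRINITY_DN17514_c0_g2 varied between libraries of one section, with 150.3, 125 and 6.82 CPM in M1, 164, 87.3 and 38.4 in M2 and 148, 115 and 42.3 in M3. It passed no section test (edgeR adjusted p of at least 0.906). Of the second, TRINITY_DN892_c2_g1 stood at 90.9, 73.4 and 218 CPM in green bean M1 and 32.7, 36.6 and 53 in M3 (log2 fold change -1.71, SE 0.38, adjusted p = 0.0219 by edgeR). TRINITY_DN892_c2_g2 stood at 374, 778 and 501 and 260.5, 314 and 328 CPM (log2 fold change -0.95, SE 0.25, adjusted p = 0.0371 by edgeR). Genes of one component may share reads, and the division of these reads between them is uncertain.

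Most of the 113 genes had several isoforms, with a median of 4, a maximum of 17 and 21 genes with 1. In 95 genes one isoform held over 50% of the gene's level in the corn midgut, and in 50 genes over 90%. The leading isoform was the same in all sections for 101 genes on corn and for 99 on green bean. The isoform that led TRINITY_DN1684_c1_g2 on corn held 56.6% of its corn midgut level and 19.2% of its level on green bean, and that of TRINITY_DN390_c0_g1 held 74.4% and 46.2%. These shares rest on the quantifier's division of reads among isoforms and were not tested.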

How the data were processed

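RNA sequencing of 24 libraries was analysed from 3 deposited tables, of corn-fed, gland and midgut libraries. The deposited values are estimated counts, all whole numbers, of 298322 transcripts with Trinity identifiers, with no normalization stated. Tools named in the submitters' processing notes, without saying what each did, are DESeq2 1.20.0, Salmon 0.12 and Trim Galore 0.4.4. Assembly and annotation: not given in the sources used here. Every column was matched to a labelled library by tissue, diet and replicate.

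Isoform counts were summed to Trinity genes (Python 3.11.15, pandas 2.3.3). Levels are CPM over column totals. Counts were tested with edgeR 4.0.16 (R 4.3.3): filterByExpr, TMM, glmQLFit (robust) and glmQLFTest, two-sided, with Benjamini-Hochberg adjustment over all genes of the fit. Section tests used the 9 green bean midgut libraries, diet tests all 18 midgut or 6 gland libraries, each within 1 table. Standard errors are the fold change divided by the square root of F. DESeq2 1.42.0, other scalings, no filter, a replicate block sections summed per diet and number, and fits without single libraries were alternatives. The procedure was also run on simulated counts drawn independently, without outlying libraries or linked sections. That run cannot show how stable the calls in these data are. Intervals of counts and limits from 3 counts cover counting error only.

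The genes and tests were chosen with earlier results of these data known. Named genes are the 4 with the highest corn level, per comparison up to 2 rising and 2 falling called genes without overlap between groups, those next to each threshold, those farthest from each criterion on green bean, and those that share a component.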

Additional observations from a re-analysis of the deposited data

Results flagged for a closer look

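On the scale of CPM over library totals, all 3 green bean libraries of TRINITY_DN1391_c2_g1 lay above all 3 corn libraries in M1, with a log2 ratio of means of 0.49, and all lay below them in M3, with -1.67. TRINITY_DN892_c2_g2 lay above in M2, with 0.43, and below in M3, with -0.39. The difference in diet effect between sections was not tested for either gene. With TMM scaling the fitted log2 fold changes were -0.09 in M1 and -1.52 in M3 for TRINITY_DN1391_c2_g1, and -0.17 in M2 and -0.30 in M3 for TRINITY_DN892_c2_g2, so that all 4 were below 0. None of these fold changes passed the edgeR test (adjusted p of at least 0.417).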

How the results depend on the processing

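All fits below keep the 113 genes. The counts are of these genes alone, without the share of all genes called in the same fit. They show how calls move with the processing, and not how the 113 genes compare with other genes. DESeq2 called 28, 44 and 56 of them for green bean M1 to M2, M2 to M3 and M1 to M3, in place of 12, 14 and 35 with edgeR, and 39, 30 and 3 for diet in M1, M2 and M3, 50 over the mean of the sections and 5 in glands, in place of 1, 3, 0, 28 and 0. With no filter on low counts the numbers were 28, 33 and 47 between sections and 23, 13, 7, 34 and 16 for diet in M1, M2, M3, the mean and glands. DESeq2 size factors in the edgeR fit gave 2 for diet in M1, and column totals, chosen after seeing the data, 5 for diet in M2. All 18 midgut libraries gave 4 for M2 to M3 and 18 for M1 to M3, and the 6 libraries of M1 alone gave 0 for diet. Sections summed per diet and replicate number, also chosen after seeing the data, gave 0 over the mean. Without corn replicate 1 the diet counts were 47 in M1, 53 in M2 and 77 over the mean, and without corn replicates 2 and 3 they were 0, 0 and 5. Leaving out 1 library gave 6 to 10, 6 to 13 and 25 to 31 between sections, 0 to 2, 0 to 24, 0 and 12 to 46 for diet in M1, M2, M3 and the mean, and 0 in glands. The 24 for diet in M2 came without corn M2 replicate 1. The numbers that met the midgut and gland criteria on green bean were 87 to 95 and 12 to 42 without 1 replicate, and 93 and 21 with TMM. The deviations of same-numbered sections correlated at -0.00732 to 0.912 on green bean and 0.117 to 0.711 on corn, and a library correlated best with its own number in 13 and 11 of 18 cases, which is a hint from the data and not from the design. Between diets the correlations were -0.0905 to 0.0392. Not every green bean pair exceeded 0.1, and the labels do not say what a number marks, so the fits without the block were kept. With the replicate block the counts were 12, 21 and 43 between sections, and 3, 5, 0, 39 and 0 for diet in M1, M2, M3, the mean and glands. The 18 named results gave 252 values in alternative fits, with many fits shared between results. None of these values changed direction, and 54 lost the call. Causes of these changes were not tested. With 3 libraries a group, many changes of 2-fold could not be resolved.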

Other observations

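Over the 113 genes, the levels in each green bean gland library were also set against the section means of both diets (Pearson r of log10 CPM with 0.1 added, a description over genes that share a library). With M3, r was 0.896 for the corn means and 0.874 for the green bean means in replicate 1, 0.903 and 0.893 in replicate 2, and 0.885 and 0.863 in replicate 3. With M2, r was 0.889 and 0.832, 0.896 and 0.865, and 0.866 and 0.813. In these sections, each green bean gland library followed the corn midgut means somewhat more closely than the green bean ones. The genes were chosen on the corn levels, and the difference was not tested.

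Replicates of a group differed in the 113 genes by a median coefficient of variation of 14.3% in green bean M2 to 25.2% in corn M2 among midgut groups, and by 38.8% in corn glands and 76% in green bean glands. In the 2610 reference genes the median was 10.8% in green bean M2 to 28.9% in corn M2 among midgut groups. Their medians were 16.3% in corn glands and 10.8% in green bean glands. The reference genes were taken for higher gland levels, so the gland medians compare genes at unlike levels, and the difference was not tested.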
